A study of Mus musculus with 8 samples.

Results

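Carbonic anhydrases convert carbon dioxide and water to bicarbonate and a proton, and the reverse. Of the 30587 genes in the deposited count table, 10 carbonic anhydrase genes were taken by symbol (Car2, Car3, Car4, Car5b, Car8, Car11, Car12, Car13, Car14 and Car15), and all 10 had enough reads to be tested among 18048 genes. The 8 kidney libraries were from mice aged 28 days, 4 from WT mice (C57BL/6) and 4 from Tsc1-KO mice (genotype Tsc1f/f/Aqp2 Cre). In Tsc1-KO mice a Cre recombinase under the Aqp2 promoter removes Tsc1, a brake on mTORC1 signaling, from principal cells of the collecting duct, and the study follows the renal cysts that form. The labels name no treatment, and no label ties a library to its own mouse. Y-linked reads split the libraries of each genotype, as given below, so these were not all from the same mouse. How many mice each genotype had is not given. The p-values below reflect the spread among libraries, which may be technical in part.

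In the nephron, cytosolic Car2 supplies bicarbonate and protons inside proximal tubule cells and acid-secreting intercalated cells, and membrane-bound Car4, Car12, Car14 and Car15 act on the outer face of the cell. Car5b works inside mitochondria. Car8 and Car11 keep the fold of the family without its catalytic activity, and Car3 is a slow enzyme that is abundant in adipocytes and skeletal muscle.

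Whole-library depth ran from 26453073 to 31226739 counts. Tsc1 read 51.4 ± 5.84 CPM (counts scaled to library depth by the trimmed mean of M values, TMM) in WT and 49.7 ± 13.1 CPM in Tsc1-KO kidneys (SD, n = 4 each), with overlapping libraries, so whole-kidney reads of Tsc1 did not check the genotype labels. Aqp2, the water channel of principal cells, read 441 ± 117 and 477 ± 66.0 CPM. The 8 listed genes of A-type intercalated cells were all higher in Tsc1-KO kidneys (edgeR quasi-likelihood test, adjusted p under 0.05), beside 3.5% of all genes. Their sum was 340 to 461 CPM in WT and 796 to 1388 CPM in Tsc1-KO kidneys, and 7 to 8 of them passed with each library left out in turn. The list was chosen with earlier results of these data known, so its count is no independent check of the genotype labels. Reads of 4 Y-linked genes numbered 3945 to 6001 in WT 3, WT 4, Tsc1-KO 7 and Tsc1-KO 8, and 0 to 8 in the other libraries, so each genotype held 2 libraries of each kind. Tsc1-KO 7 was closer over all genes to WT 4 (Pearson r 0.977 of log2 CPM) than to any Tsc1-KO library, and values of Car2, Car3 and Car14 are given without it as well. Reads of whole tissue cannot tell fewer cells of a type apart from less RNA per cell.

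None of the 10 genes differed between the genotypes at an adjusted p under 0.05 over all tested genes (edgeR), whereas 842 genes did, or 4.67% of those tested. At an unadjusted p under 0.05 the count was 4 of 10 (Car2, Car13, Car14 and Car15), against 17.6% of all genes tested. DESeq2 called 2 of the 10, Car13 higher (adjusted p = 0.0123) and Car14 lower (adjusted p = 0.0257), against 5.6% of genes higher and 2.93% lower. The libraries of the genotypes did not overlap for 2 of the 10, against 11.5% of all genes tested. These were Car13, higher (7.09% of all genes), and Car14, lower (4.4% of all genes). Within the 4 libraries with Y-linked reads 6 of the 10 did not overlap, against 42.9% of all genes, and within the other 4 libraries 6 of the 10, against 39.5%, with 2 libraries a genotype in each. The median log2 change of the 10 was 0.27, with 7 positive and 3 negative, beside 0.00 over all tested genes.

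**Figure D1:**
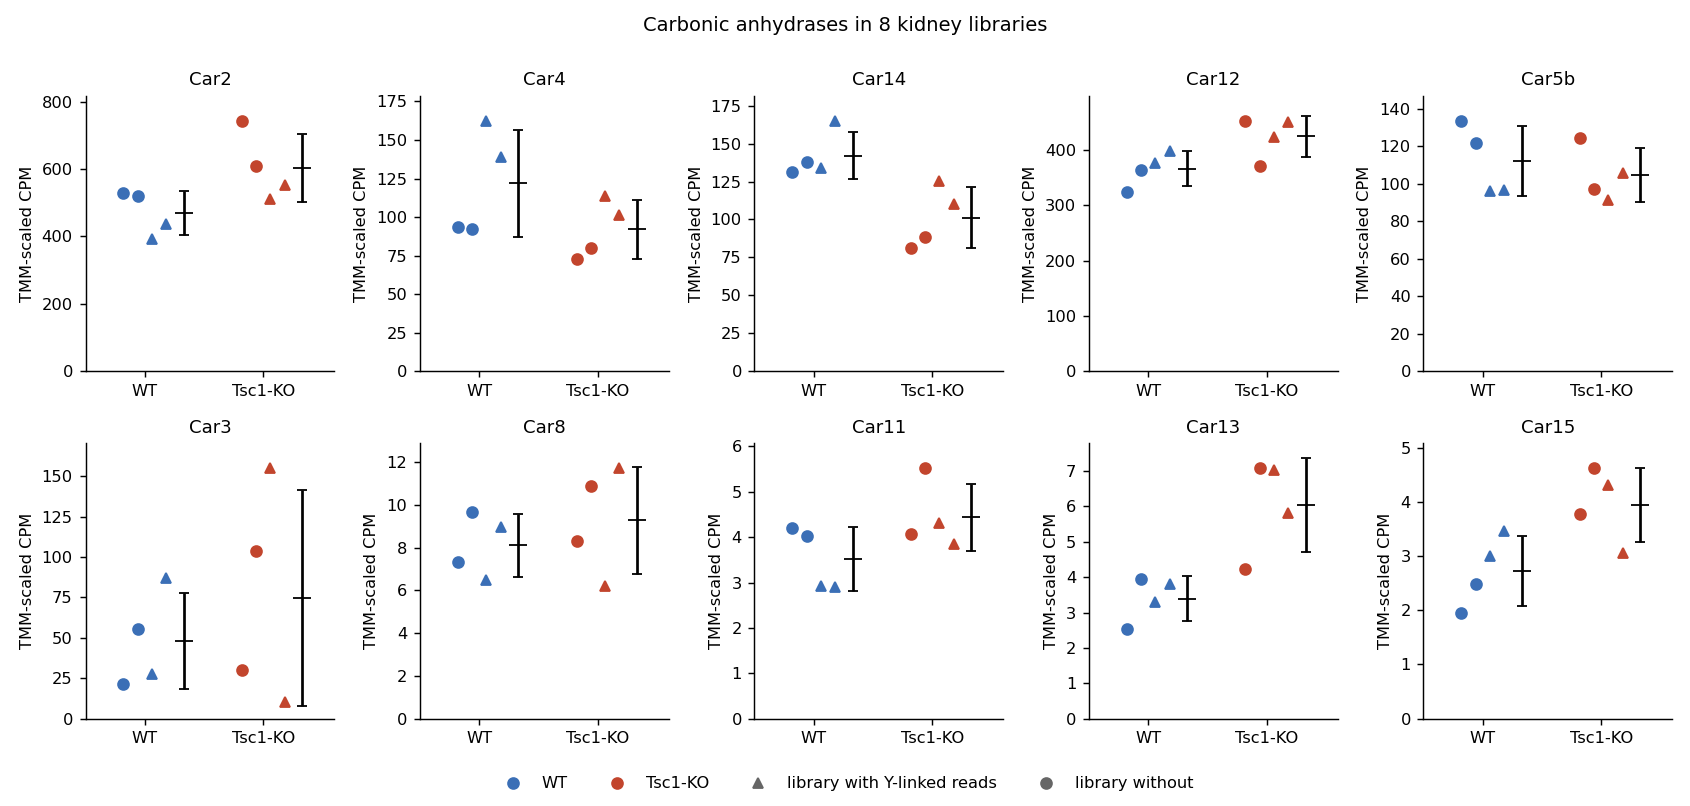
Each panel shows 1 carbonic anhydrase, with each library as a point in TMM-scaled CPM, and the bar beside each genotype gives the mean and SD of 4 libraries. Triangles are libraries with Y-linked reads. Car14 was lower in all 4 Tsc1-KO libraries and Car13 higher in all 4, and within each genotype Car4 read higher, and Car2 lower, in the libraries with Y-linked reads.

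Promoters are shown for 3 genes, Car14 and Car4 because they are the membrane-bound members with the lowest Tsc1-KO levels relative to WT, and Car12 because human CA12 is a known target of hypoxia-inducible factor. Of the 10 members, 6 matched a RefSeq promoter of assembly GRCm38.p6, each 250 bases before to 50 bases after the start. Each sequence runs 5′ to 3′ on the strand of the gene, and capitals mark a match on either strand to ACGTG or GCGTG (cores of the hypoxia-inducible factor site), GTAAACA (forkhead core), GTTAAT (HNF1), CAAAGT (HNF4) or TATAAA. No capitals overlap another match.
Car14, chr3:95904636-95904935, minus strand: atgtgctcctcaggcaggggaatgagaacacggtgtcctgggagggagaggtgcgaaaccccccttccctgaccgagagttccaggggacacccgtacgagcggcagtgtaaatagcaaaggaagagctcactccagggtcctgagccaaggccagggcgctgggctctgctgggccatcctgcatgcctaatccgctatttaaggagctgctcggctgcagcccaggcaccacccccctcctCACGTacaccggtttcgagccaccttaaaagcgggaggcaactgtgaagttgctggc
Car4, chr11:84957504-84957803, plus strand: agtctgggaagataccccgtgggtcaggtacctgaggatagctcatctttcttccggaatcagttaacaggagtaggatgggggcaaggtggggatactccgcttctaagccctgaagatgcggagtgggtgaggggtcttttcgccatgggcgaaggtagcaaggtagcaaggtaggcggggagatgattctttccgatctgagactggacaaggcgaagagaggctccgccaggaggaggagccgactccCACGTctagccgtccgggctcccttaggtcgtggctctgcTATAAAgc
Car12, chr9:66713436-66713735, plus strand: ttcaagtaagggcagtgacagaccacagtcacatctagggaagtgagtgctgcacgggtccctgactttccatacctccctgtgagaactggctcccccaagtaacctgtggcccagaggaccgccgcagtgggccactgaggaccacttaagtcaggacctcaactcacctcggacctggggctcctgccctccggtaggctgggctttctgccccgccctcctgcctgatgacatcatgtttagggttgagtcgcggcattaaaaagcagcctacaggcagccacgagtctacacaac
Car14 and Car4 each held ACGTG once, on the reverse strand, at bases 244 to 248 and 253 to 257 of the window. That pentamer lay in 19.6% of 32851 promoters of the same length, and GCGTG in 32.4%. Car4 also held TATAAA at bases 293 to 298, after its start, as did 13.6% of promoters somewhere in the window. Car12 held none of the motifs in this window. The forkhead, HNF1 and HNF4 letters were in 3.65%, 7.1% and 14.4% of promoters and in none of the 3 shown. Among the matched members not shown, Car5b and Car11 held GCGTG and Car15 held CAAAGT, so a hypoxia core was not particular to Car14 and Car4.

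Car2 (ENSMUSG00000027562), the main cytosolic enzyme, had the highest level per length in every library. Its FPKM (fragments scaled to gene length and library depth) was 194 ± 27.8 in WT and 246 ± 40.4 in Tsc1-KO kidneys (SD, n = 4). It made up 48.4% ± 6.47 of the summed FPKM of the 10 genes in WT and 56.1% ± 7.43 in Tsc1-KO kidneys. On the FPKM scale the WT order was then Car4 (62.0), Car14 (55.9), Car12 (48.2), Car5b (17.7), Car3 (16.7), Car8 (2.11), Car11 (1.83), Car13 (1.48) and Car15 (1.43). The WT libraries did not overlap between Car2 and Car4, Car12 and Car5b, or Car3 and Car8, and the other neighbors in this order overlapped. In Tsc1-KO kidneys Car12 (55.2) stood above Car4 (46.2) and Car14 (39.3), though these neighbors overlapped. The place of Car15 in the order is uncertain, since 65.7% of its exon bases are shared with Gm20518 on the same strand.

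**Figure D2:**
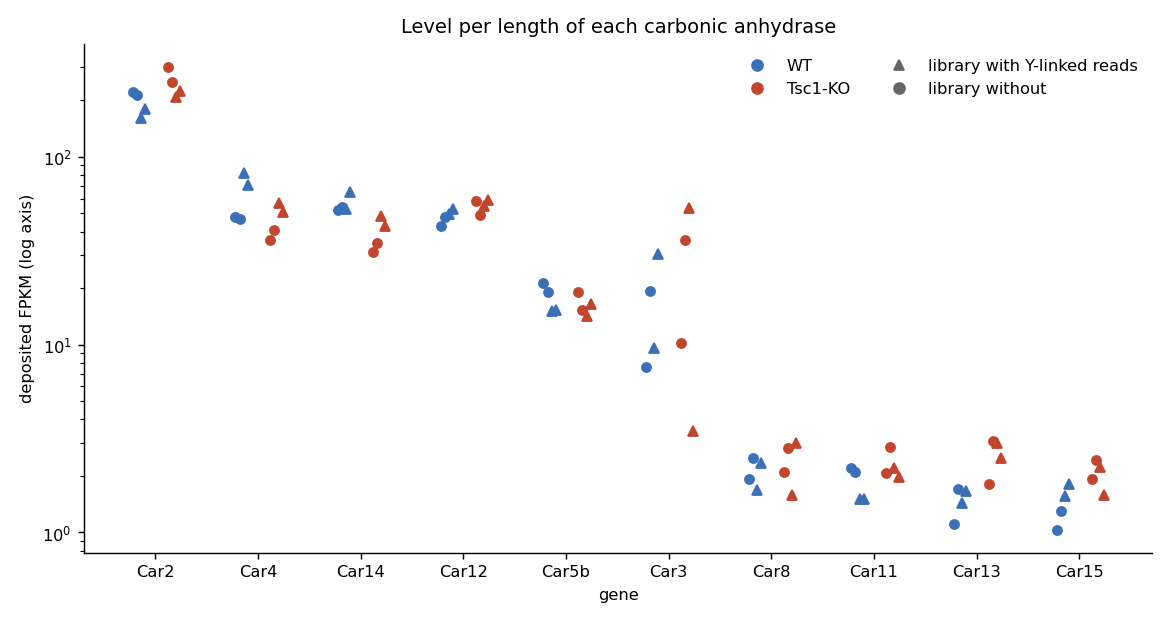
Deposited FPKM on a log axis for each gene and library. Car2 stands above the rest, Car4, Car14 and Car12 share a band, and Car8, Car11, Car13 and Car15 lie lowest. The level of Car15 is uncertain, since it shares exon bases with Gm20518.

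In CPM, Car2 read 529, 520, 392 and 437 in WT 1 to WT 4. It read 743, 611, 511 and 552 CPM in Tsc1-KO 5 to Tsc1-KO 8. The genotypes overlapped, since Tsc1-KO 7 lay below WT 1 and WT 2, and within each genotype the libraries with Y-linked reads were the lower ones. The log2 change was 0.36 (SE 0.146, 95% interval 0.04 to 0.68, edgeR adjusted p = 0.218), and it was 0.36 with adjusted p = 0.0713 in a model with a term for Y-linked reads. Without Tsc1-KO 7 the genotypes did not overlap for Car2, and its log2 change was 0.43 (edgeR adjusted p = 0.125). Fewer libraries make non-overlap easier to reach, and its share of all genes was not computed without Tsc1-KO 7. Over the 8 libraries the genes named as nearest to Car2 in log2 CPM, of 13584 compared, were Cd274 (Pearson r 0.971) and Scnn1a (0.968), both sharing the libraries and scaling of Car2.

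Car13 (ENSMUSG00000027555), another cytosolic enzyme, lies with Car2 and Car3 on chromosome 3 (Car13 14641727 to 14663002, Car3 14863512 to 14872523 and Car2 14886273 to 14900770, plus strand, positions as in GRCm38). It had 70 to 102 reads a library in WT and 127 to 224 in Tsc1-KO kidneys. The levels were 2.54, 3.95, 3.29 and 3.80 CPM in WT 1 to WT 4 and 4.24, 7.08, 7.04 and 5.82 CPM in Tsc1-KO 5 to Tsc1-KO 8. Every Tsc1-KO library was above every WT library, by a margin that Tsc1-KO 5 narrowed to 4.24 against 3.95 CPM. Car13 had a log2 change of 0.83 (SE 0.227, 95% interval 0.33 to 1.33, edgeR adjusted p = 0.0654). Without Tsc1-KO 5 it was 0.97 with adjusted p = 0.0433, and over each library left out in turn adjusted p ran from 0.0433 to 0.166.

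Car14 (ENSMUSG00000038526, chromosome 3, 95897768 to 95904691, minus strand), a transmembrane enzyme known from the proximal tubule and thin descending limb of the mouse, was the member lowest in Tsc1-KO kidneys relative to WT on the log2 scale. It read 131, 138, 134 and 165 CPM in WT 1 to WT 4. It read 81.0, 88.4, 125 and 110.2 CPM in Tsc1-KO 5 to Tsc1-KO 8. The genotypes did not overlap, with Tsc1-KO 7 nearest to WT. The log2 change was −0.49 (SE 0.146, 95% interval −0.81 to −0.17, edgeR adjusted p = 0.0899). With each library left out in turn, Car14 passed the threshold in 1 of 8 edgeR fits, and adjusted p ran from 0.0238 to 0.208. That fit left out Tsc1-KO 7 (−0.61, adjusted p = 0.0238), the Tsc1-KO library nearest to WT. Car14 did not pass within the 4 libraries with Y-linked reads (−0.345, edgeR adjusted p = 0.544) or within the other 4 (−0.69, adjusted p = 0.0876). It passed in a model with a term for Y-linked reads (−0.51, adjusted p = 0.0250), where 1.76% of genes were called lower and 4.32% higher. With that term, Car14 passed in 2 of 8 fits that each left out 1 library (adjusted p 0.0166 to 0.0851), a check chosen after seeing the data. Without Tsc1-KO 7 or with the Y-linked term it was the sole member called. The fit without Tsc1-KO 7 called 833 genes higher and 373 lower, against 632 higher and 210 lower with all 8 libraries. Exons of Aph1a on the opposite strand cover 17.5% of the exon bases of Car14, and the strandedness of the counts is not given in the sources used here.

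The listed genes of the proximal tubule, 15 tested, had 0 higher and 4 lower (Slc34a1, the phosphate transporter, Miox, Hnf4a and Fbp1), beside 1.16% of all genes lower. Their summed level was 28644 to 36260 CPM in WT and 18326 to 28492 CPM in Tsc1-KO kidneys, and none of the 15 was at 0 reads. The sum was unweighted, and its largest parts were Kap (mean 9632 CPM in WT, 5731 CPM in Tsc1-KO) and Slc34a1 (6637 and 4221 CPM). Within WT the sum was 36260 and 34267 CPM in WT 3 and WT 4, which held Y-linked reads, and 30555 and 28644 CPM in WT 1 and WT 2. So r within WT against this sum cannot be told apart from the split by Y-linked reads. On the log2 scale Car14 and that sum had Pearson r 0.851 (Spearman rho 0.786) over 8 libraries that share scaling, and r was 0.301 within WT and 0.647 within Tsc1-KO (4 libraries each). As a share of that sum, Car14 ranged over 0.370% to 0.482% among WT libraries and 0.403% to 0.601% among Tsc1-KO libraries. The genotypes overlapped on this scale, with the lowest and the highest share each greater in Tsc1-KO than in WT libraries. The count of proximal tubule genes called was 1 to 7 with each library left out in turn, 1 without WT 3 or Tsc1-KO 8 and 7 without Tsc1-KO 7. The part of proximal tubule RNA in the result for Car14 was not tested.

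**Figure D3:**
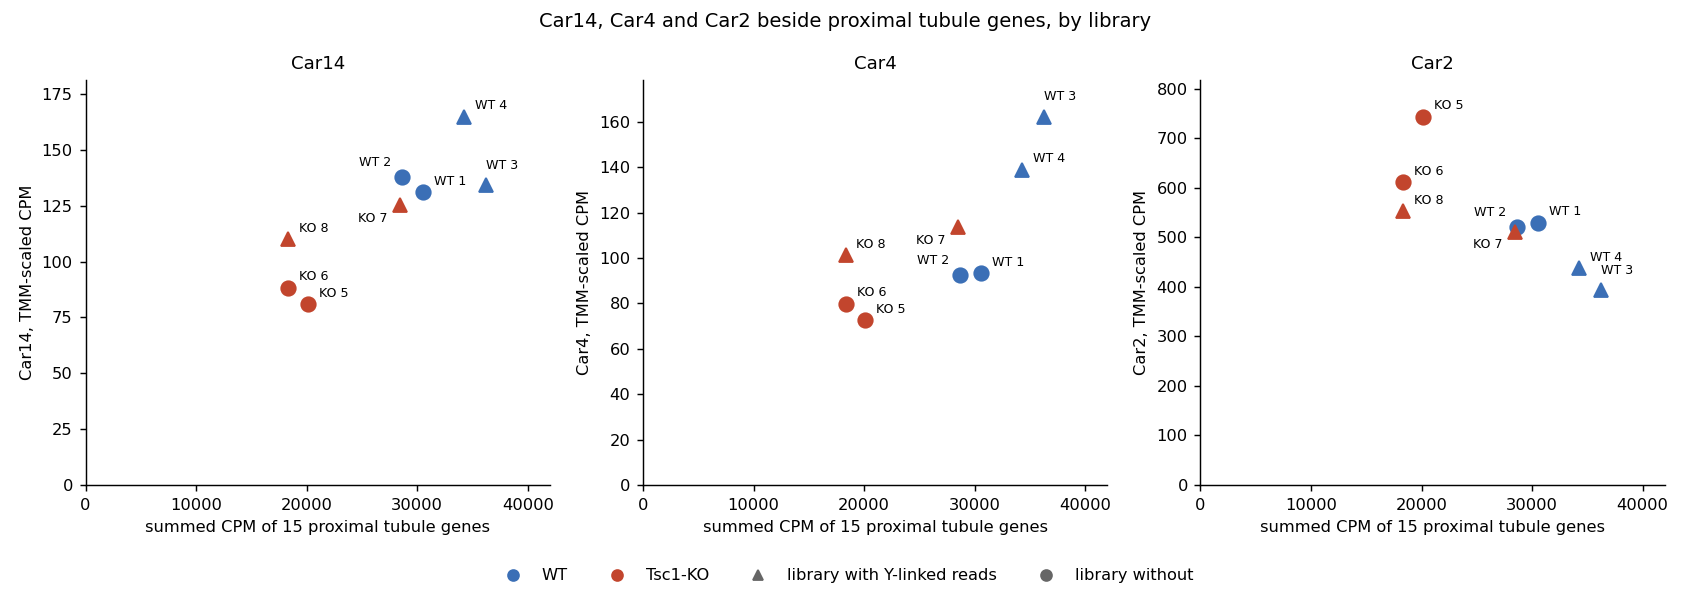
Level of Car14, Car4 and Car2 in TMM-scaled CPM against the summed CPM of 15 proximal tubule genes, 1 point per library. On the log2 scale r over 8 libraries was 0.851 for Car14, 0.759 for Car4 and −0.816 for Car2, with 0.301, 0.972 and −0.952 within WT and 0.647, 0.617 and −0.483 within Tsc1-KO. Within WT, both libraries with Y-linked reads had higher sums than both without.

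Car4 (ENSMUSG00000000805, chromosome 11, 84957786 to 84966044, plus strand) is anchored to the membrane by a lipid. It read 93.2, 92.5, 162 and 139 CPM in WT 1 to WT 4, and 72.8, 79.9, 113 and 101 CPM in Tsc1-KO 5 to Tsc1-KO 8. Both WT 1 and WT 2 lay below Tsc1-KO 7 and Tsc1-KO 8, so the genotypes overlapped. Car4 had a log2 change of −0.41 (SE 0.206, 95% interval −0.86 to 0.05, edgeR adjusted p = 0.353), and −0.39 with adjusted p = 0.0510 with a term for Y-linked reads. Without WT 3, the highest library, it was −0.25 (adjusted p = 0.661). In that model Car4 was higher in the libraries with Y-linked reads by 0.60 on the log2 scale (SE 0.103, adjusted p = 0.0367), where 0.399% of genes were called. That call held in 2 of 8 fits that each left out 1 library (0.51 to 0.65, adjusted p 0.00755 to 0.219), chosen after seeing the data. Car2 was lower in those libraries by a log2 value of −0.34 (adjusted p = 0.277). Over the 8 libraries log2 Car2 and Car4 had Pearson r −0.95, and −0.95 within genotype, across libraries that share scaling. Both values leave the split by Y-linked reads in place and cannot be told apart from it.

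Car12 (ENSMUSG00000032373, chromosome 9, 66713686 to 66766845, plus strand) is a transmembrane enzyme with its active site outside the cell. It read 324, 363, 377 and 399 CPM in WT 1 to WT 4, and 453, 372, 424 and 450.0 CPM in Tsc1-KO 5 to Tsc1-KO 8. Only Tsc1-KO 6 fell among the WT libraries. The log2 change was 0.21 (SE 0.112, 95% interval −0.03 to 0.46, edgeR adjusted p = 0.363). Of 19 listed and tested hypoxia targets, a list that includes Car12 and Car9, 2 were higher (Pdk1, a kinase that limits pyruvate oxidation, by 1.46 on the log2 scale, and Adm, adrenomedullin, by 0.81) and 0 lower, beside 3.5% of all genes higher. Pdk1 passed in all 8 fits that left out 1 library and Adm in 2 of 8, and the median log2 change of that list was 0.08.

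Car15 (ENSMUSG00000090236, chromosome 16, 17835276 to 17838364, minus strand), anchored to the membrane by a lipid in the mouse, had 54 to 139 reads a library. It read 1.96, 2.48, 2.997 and 3.47 CPM in WT 1 to WT 4 and 3.77, 4.62, 4.30 and 3.05 CPM in Tsc1-KO 5 to Tsc1-KO 8. Tsc1-KO 8 lay below WT 4, and the others lay above all WT libraries. Car15 had a log2 change of 0.53 (SE 0.239, edgeR adjusted p = 0.278). Its count is uncertain, since 65.7% of its exon bases are shared with Gm20518 on the same strand, which had a log2 change of 0.77 (edgeR adjusted p = 0.137).

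Car3 (ENSMUSG00000027559) varied most among the libraries of 1 genotype. It read 21.7, 55.3, 27.6 and 86.8 CPM in WT 1 to WT 4 and 29.8, 103.9, 154.8 and 10.1 CPM in Tsc1-KO 5 to Tsc1-KO 8. The highest and the lowest of the 8 were both Tsc1-KO libraries. For Car3 the log2 change was 0.64 with an interval of −1.47 to 2.75 (edgeR adjusted p = 0.794), and it was 0.00058 without Tsc1-KO 7 and 1.08 without WT 4. The summed level of 10 adipocyte genes, among them Adipoq and Plin1, ran from 151 to 283 CPM in WT and from 123 to 545 CPM in Tsc1-KO kidneys. That sum was unweighted, and its largest part was Fabp4 (mean 116 CPM in WT, 168 CPM in Tsc1-KO). Adipoq (4.78 and 9.73 CPM) and Plin1 (11.0 and 19.4 CPM) were small parts. On the log2 scale Car3 and that sum had Pearson r 0.949 and Spearman rho 0.976 over 8 libraries that share scaling (0.987 within WT, 0.985 within Tsc1-KO, 4 libraries each), and r was 0.979 without the 2 libraries farthest from the median. Summed skeletal muscle genes stayed at 2.64 to 5.75 CPM. The part of fat in the result for Car3 was not tested.

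**Figure D4:**
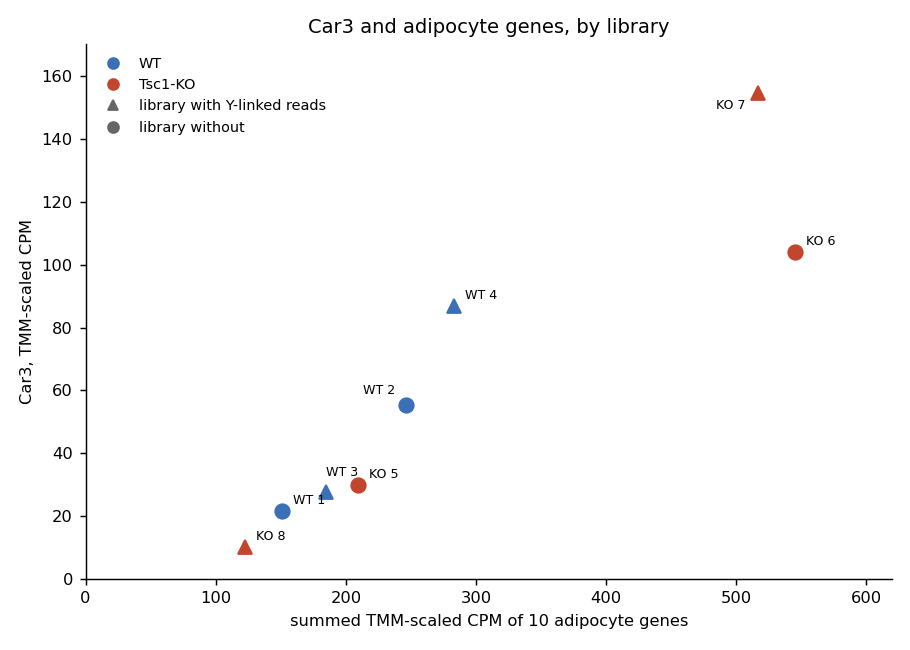
Car3 in TMM-scaled CPM against the summed CPM of 10 adipocyte genes, 1 point per library. Tsc1-KO 7 and Tsc1-KO 6 are high on both axes and Tsc1-KO 8 is low on both.

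Car5b (ENSMUSG00000031373, chromosome X, 163976822 to 164027997, minus strand), the mitochondrial enzyme, read 134, 122, 96.0 and 96.8 CPM in WT 1 to WT 4 and 124, 97.2, 91.5 and 106 CPM in Tsc1-KO 5 to Tsc1-KO 8. The genotypes overlapped, and WT 1 and WT 2 were above WT 3 and WT 4. Its log2 change was −0.10 (95% interval −0.41 to 0.21, edgeR adjusted p = 0.799), and it ran from −0.19 without Tsc1-KO 5 to −0.0098 without WT 1.

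The members without catalytic activity were near the low end on the FPKM scale. Car8 (ENSMUSG00000041261, chromosome 4, 8143362 to 8239041, minus strand), known to bind the inositol trisphosphate receptor, read 7.32, 9.65, 6.48 and 8.98 CPM in WT 1 to WT 4 and 8.31, 10.9, 6.22 and 11.7 CPM in Tsc1-KO 5 to Tsc1-KO 8. The lowest and the highest library were both Tsc1-KO. Car11 (ENSMUSG00000003273, chromosome 7, 45699843 to 45704682, plus strand) read 4.20, 4.03, 2.92 and 2.91 CPM in WT 1 to WT 4 and 4.07, 5.52, 4.30 and 3.85 CPM in Tsc1-KO 5 to Tsc1-KO 8. Tsc1-KO 6 stood highest, and WT 3 and WT 4 lowest. Their log2 changes were 0.19 (SE 0.219, adjusted p = 0.727) and 0.33 (SE 0.215, adjusted p = 0.481, edgeR), and both overlapped. With 1 library left out, Car8 ran from 0.06 (without Tsc1-KO 8) to 0.34 (without Tsc1-KO 7), and Car11 was 0.21 without Tsc1-KO 6.

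**Figure D5:**
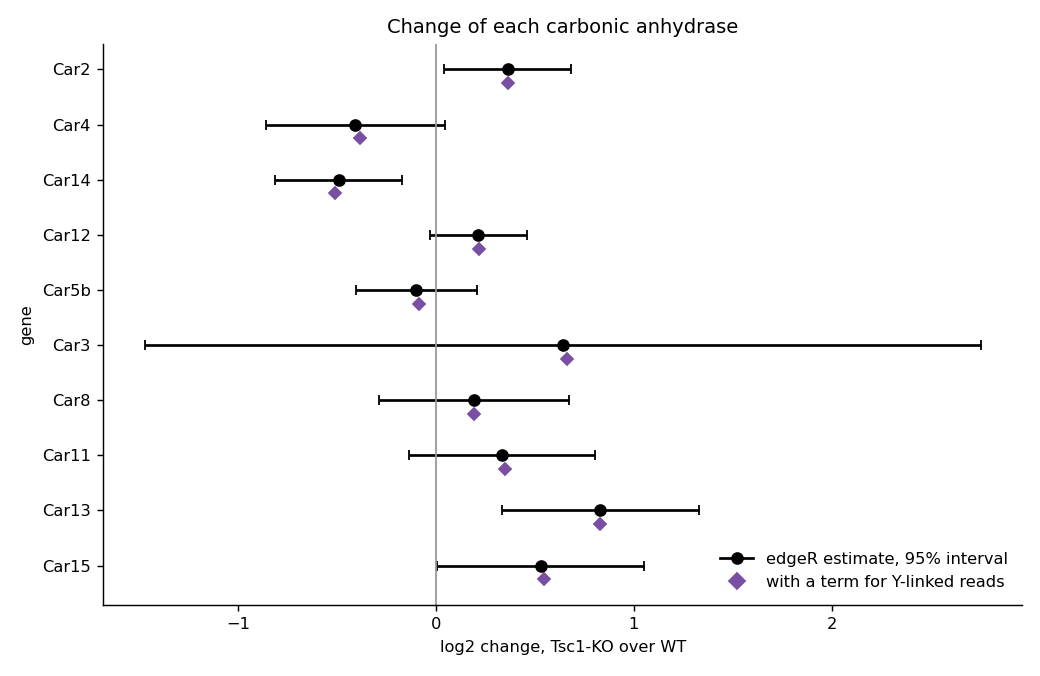
log2 change of each gene in Tsc1-KO over WT kidneys, with the edgeR estimate and its 95% interval (circles), and the estimate with a term for Y-linked reads (diamonds). Intervals for Car2, Car13, Car14 and Car15 lie off 0 before adjustment, and that of Car3 is the widest.

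Of the other family genes, Car1 and Car6 had at most 1 read in any library and were not tested. Car5a, Car7 and Car9 were not called (log2 changes −0.13, 0.09 and 0.33, edgeR adjusted p = 0.929, 0.870 and 0.562). Car10 was not analysed here. Among 24 listed acid-base transport genes, 3 were higher (Slc4a1, the basolateral bicarbonate exchanger of A-type cells, by 1.12 on the log2 scale, Atp12a, a proton pump, by 2.09, and Rhcg, an ammonia channel, by 0.87) and 0 lower, beside 3.5% of all genes higher and 1.16% lower. Slc4a1 passed in all 8 fits that left out 1 library, and Atp12a and Rhcg in 2 of 8 each. The median log2 change of that list was 0.11.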

How the data were processed

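Per the labels, total kidney RNA was selected for poly(A), fragmented and sequenced. Alignment and counting tools listed by the submitters' processing notes were HISAT2 2.0.4 and HTSeq 0.9.1. Build and strandedness: not given in the sources used here. Deposited gene positions equalled those of the GRCm38 annotation (GENCODE M21) for 29756 of 30551 shared identifiers and for all 10 members. The authors deposited raw counts per gene, FPKM values, and a normalized signal per gene, beside their own fold changes and p-values, which were not used. Other deposited sheets repeat this table and were not used. Counts were the basis of each test, deposited FPKM values of levels between genes, and the deposited signal was checked only (FPKM times gene length over signal was constant, so the deposited FPKM carries the scaling of that signal).

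Genes kept by filterByExpr (minimum count 10) were scaled by TMM and tested in edgeR 4.0.16 (robust quasi-likelihood, Benjamini-Hochberg over 18048 genes, threshold 0.05), with limma 3.58.1 on log2(FPKM + 1) and log2(FPKM + 0.1), and DESeq2 1.42.0, as alternatives, in R 4.3.3. Code was tested on simulated data. Y-linked libraries had over 1000 such reads. All 10 members are named, as are called genes of the acid-base and hypoxia lists, the other family genes, Tsc1 and Aqp2, and the 3 genes nearest to Car2, of which 1 is not reported here. The members and lists were chosen with earlier results of these data known. Sequences came from RefSeq. Figures used Python and matplotlib.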

Additional observations from a re-analysis of the deposited data

Results flagged for a closer look

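Car9, a hypoxia target of the same family, was singled out by 1 library. It read 14.4 CPM in Tsc1-KO 8 and 7.48 to 8.55 CPM in the other Tsc1-KO libraries, a gap of 0.847 of the whole range, where Dixon's limit for 4 values is 0.829. Of 26 groups examined this way 1 passed, and chance passes about 1 in 20. Without Tsc1-KO 8 the log2 change of Car9 was 0.07, against 0.33 with all 8 libraries (edgeR adjusted p = 0.562).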

How the results depend on the processing

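No paired analysis was possible because the WT libraries are numbered 1 to 4 and the Tsc1-KO libraries 5 to 8, with no shared number. With each library left out in turn, genes called higher numbered 321 to 833 and lower 107 to 373. Members called higher numbered 0 to 1 (Car13 without Tsc1-KO 5) and lower 0 to 1 (Car14 without Tsc1-KO 7). Acid-base genes called numbered 1 to 4 and hypoxia targets 1 to 3. Members not overlapping numbered 2 to 3. Fewer libraries make non-overlap easier to reach, and its share of all genes was not computed for these fits.

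DESeq2 called 1011 genes higher and 529 lower, with 1 member each way (Car13 and Car14). Without a count filter, edgeR called 665 genes higher and 260 lower, with 1 member lower (Car14, adjusted p = 0.0486). On log2(FPKM + 1) and log2(FPKM + 0.1), 1 acid-base gene was called in each. With a term for Y-linked reads 317 genes were lower, with 1 member (Car14). Within the 4 libraries with Y-linked reads, 35 genes were higher and 23 lower, 6 members did not overlap (42.9% of all genes), and 0 acid-base genes and 1 hypoxia target were called. Within the 4 without, 248 were higher and 110 lower, and 6 members did not overlap (39.5% of all genes). Each of these within-split comparisons had 2 libraries a genotype.

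The sign of 5 values near 0 turned. Car5b was 0.036 within libraries with Y-linked reads. Car5a was 0.0025 with the Y-linked term, 0.40 within libraries with Y-linked reads and −0.48 to 0.22 with libraries left out. Within libraries without Y-linked reads Car7 was −0.10, Tsc1 0.0043 and Aqp2 −0.039, and with libraries left out they ran from −0.0051 to 0.16, −0.21 to 0.095 and −0.028 to 0.24. The causes were not tested.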

Other observations

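Car5a, a mitochondrial enzyme known from liver, read 7.17, 5.81, 2.15 and 2.09 CPM in WT 1 to WT 4 and 6.48, 3.69, 2.26 and 3.31 CPM in Tsc1-KO 5 to Tsc1-KO 8. Within each genotype both libraries with Y-linked reads were below both without, as for Car2. This was chosen after its values were seen and was not tested. Car7, a cytosolic enzyme known from brain, stayed between 3.95 and 5.66 CPM in all 8 libraries. Within genotype, log2 Car2 and Car5b had Pearson r 0.893 and log2 Car11 and Car12 had r −0.904 over the 8 libraries, which share scaling, picked from all pairs of the 10 genes for their size. Both values leave the split by Y-linked reads in place.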
